A study of Mus musculus with 28 samples.

Results

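The p53 pathway was followed through 10 genes chosen by name: Trp53 itself and its well-known targets and partners Cdkn1a, Mdm2, Ccng1, Trp53inp1, Bbc3, Pmaip1, Bax, Sesn2 and Zmat3. They and the other gene lists were chosen with earlier results of these data known, so counts of them beside all genes are descriptions. Each symbol matched 1 of the 37991 genes in the count table, and 10 of 10 passed the filter on reads that left 20321 genes to be tested. The samples were naive mouse embryonic stem (ES) cells of the J1 line (strain 129S4/SvJae in all labels). They were wild type (WT), knocked out for Dnmt1, Dnmt3a and Dnmt3b, which write DNA methylation (DNMT TKO), or knocked out for Tet1, Tet2 and Tet3, which oxidise it (TET TKO). Each was transduced with a lentivirus carrying an empty vector (shEmpty) or a short hairpin against Trim28, the gene for KAP1 (shKAP1), selected in puromycin and collected on day 5. The paper reports that Kap1 knockdown halted proliferation and that many cells began to die before that day. The part of this in the changes below was not tested. RNA was sequenced from 3 libraries per hairpin of WT and of DNMT TKO and from 2 of TET TKO, 16 in all. The 2 mutants came from different laboratories and each genotype was 1 cell line, so what is particular to a line and what follows from its knocked-out genes cannot be told apart. The methods describe the replicates as independent experiments, so p-values measure the spread between experiments on 1 line of each genotype.

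p53 is a transcription factor that is held at low levels by continuous destruction and is stabilised by DNA damage and other stress. It then switches on genes that halt the cell cycle, trigger apoptosis, alter metabolism and restrain p53 itself. The ubiquitin ligase Mdm2 marks p53 for destruction and is also its target, and KAP1 is known to work with Mdm2 to hold p53 down. KAP1 is otherwise known as the corepressor that zinc finger proteins bring to transposable elements. Much of the control of p53 acts on the protein, which RNA counts do not measure.

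Proteins of the p53 family bind pairs of a short half-site, known as the p53 response element consensus. To show what such a sequence looks like at these genes, 3 kb either side of each start was searched in mm9 on both strands for 2 adjoining half-sites, with both cores kept and at most 2 other letters off. Here and below, the start of a gene is the outermost upstream end of its annotated exons, which need not be the start used most in these cells. A match was found at 4 of 10 members, beside 772 of the 20321 tested genes (3.80%). The matches at Cdkn1a, Zmat3 and Ccng1 are given on the strand of the gene, with the core of each half-site in capitals.
Cdkn1a: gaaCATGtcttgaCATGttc
Zmat3: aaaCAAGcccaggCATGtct
Ccng1: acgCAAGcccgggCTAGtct
The first lay at chr17:29227873-29227892, with its middle 42 bases upstream of the start and 1 letter off. The second lay in an intron at chr3:32263253-32263272, 1338 bases into the gene with 0 letters off, and the third in an intron at chr11:40568438-40568457, 366 bases in with 1 letter off. The 4th was 165 bases upstream of Pmaip1 with 2 letters off. A match describes letters and not binding, and a gene without one may hold a site outside this window or with a spacer.

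Libraries held 18108431 to 29373696 reads on genes. Trim28 lay between 1627 and 2086 CPM in shEmpty (reads of a gene relative to library size, with sizes scaled by the trimmed mean of M-values, TMM). In shKAP1 it lay between 149 and 190 CPM in WT, at 163 and 168 in TET TKO and between 327 and 506 in DNMT TKO. Reads on Dnmt1, Dnmt3a and Dnmt3b were lower in DNMT TKO and those on Tet1 and Tet2 lower in TET TKO, while Tet3 differed by a log2 of -0.03 ± 0.16 (SE). Knockouts that delete part of a gene leave reads on the rest, so these counts check the labels only in part. The pluripotency genes Pou5f1, Sox2, Nanog, Zfp42, Esrrb, Klf4 and Tfcp2l1 summed to 4836 to 6074 CPM in shEmpty. Over all 16 libraries, markers of fibroblasts summed to at most 11.6 CPM, of endoderm to at most 13.5 and of trophoblast to at most 83.0.

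Among the members, Bax, Ccng1 and Cdkn1a were the most abundant in WT shEmpty on a scale per length. TPM, which divide reads by exon length before relating them to the library, averaged 351 ± 6.83 (SD, n = 3) for Bax, 344 ± 13.4 for Ccng1 and 326 ± 55.2 for Cdkn1a, and the libraries of these 3 overlapped. Trp53 averaged 267 ± 10.6 TPM and overlapped Cdkn1a, which it exceeded in WT shEmpty replicate 1 (279.6 against 263 TPM). Next came Trp53inp1 at 233 ± 5.38, Sesn2 at 163 ± 5.76 and Mdm2 at 129 ± 2.60. Pmaip1 at 63.2 ± 9.19 and Zmat3 at 59.0 ± 2.20 overlapped each other, and Bbc3 was lowest at 24.7 ± 2.87 TPM. TPM were used for WT shEmpty only, because a short RNA took a large share of the TPM of TET TKO shEmpty replicate 2. The TET TKO shEmpty libraries ranged from 65.6 to 85.9 TPM for Mdm2, where their CPM were 156 and 157. What else sets that library apart was not tested.

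On Kap1 knockdown the death gene Pmaip1 was the only member that rose at least 2-fold, and it did so in each genotype. In WT the response of the others was small and split, with Ccng1 and Cdkn1a higher and Trp53, Sesn2, Trp53inp1 and Bax lower. In DNMT TKO most of the members rose, Mdm2, Ccng1 and Cdkn1a among them. In TET TKO Ccng1, Zmat3 and Mdm2 rose together with Pmaip1, while Cdkn1a stood at a log2 change of -0.11 ± 0.12 (SE).

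A gene passed the test at an adjusted p below 0.05 in edgeR's quasi-likelihood test with Benjamini-Hochberg adjustment, and was called when it also changed at least 2-fold. In WT, 3 members passed as higher, 4 as lower and 3 passed in neither direction, beside 23.0% and 22.7% of all genes, and 1 member was called, beside 17.4% of all genes. In DNMT TKO, 7 passed as higher and 1 as lower, beside 19.7% and 15.6% of all genes, and 1 was called, beside 12.5%. In TET TKO, 4 passed as higher and 2 as lower, beside 15.3% and 15.1%, and 1 was called, again beside 12.5%. Here and below, all genes means every tested gene, down to 16 reads over the 16 libraries. The members held 6059 (Bbc3) to 204274 (Ccng1) reads. A small change passes more readily on many reads, so the share that passed among genes with as many reads may be higher. That share was not computed. The median log2 change of the members was 0.04 in WT, 0.42 in DNMT TKO and 0.03 in TET TKO, where the median of all genes tested was -0.01, 0.02 and -0.01. Libraries of shEmpty and shKAP1 did not overlap for 54.4% of all genes in WT, 44.7% in DNMT TKO and 69.9% in TET TKO, where 2 libraries face 2, so a lack of overlap is common in these data. It held for 7, 8 and 8 of the members.

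**Figure D1:**
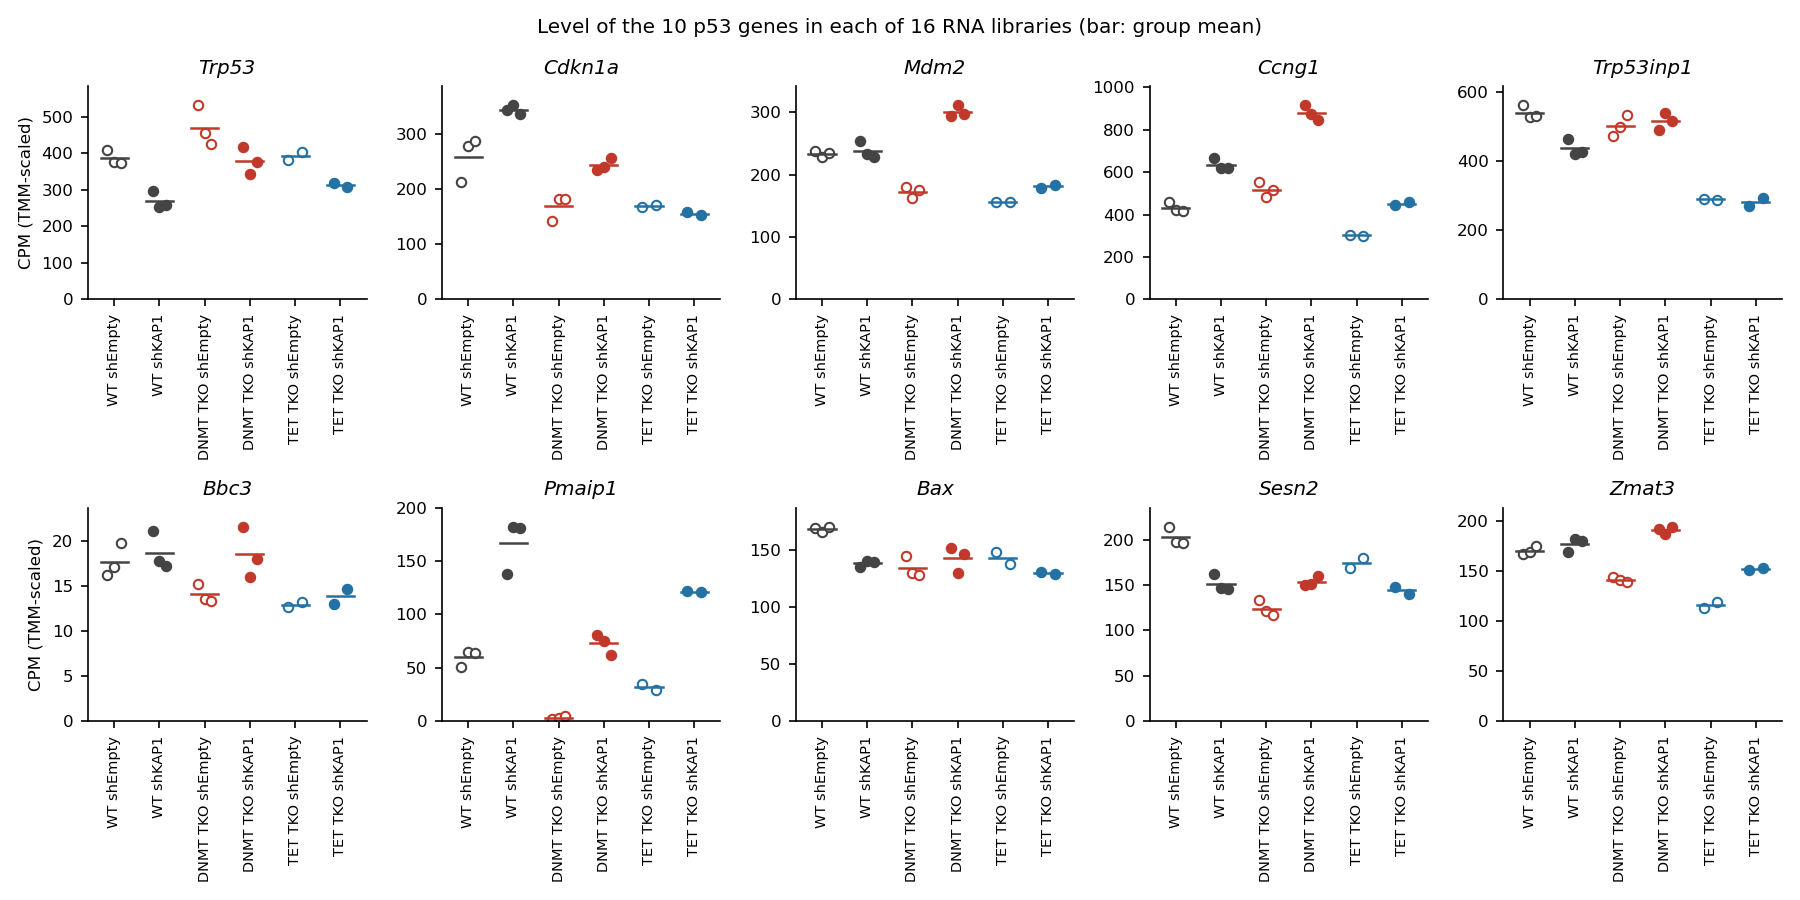
Level of each member in every RNA library, in CPM after TMM scaling on axes that start at 0. Open points are shEmpty, filled points shKAP1 and bars group means. Pmaip1 is near 0 in the 3 DNMT TKO shEmpty libraries and between 62.3 and 81.1 CPM after knockdown.

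Trp53, the gene for p53, was lower after knockdown in all 3 genotypes. In WT it had 410.3, 377 and 374 CPM in shEmpty and 296, 253 and 258 CPM in shKAP1. In DNMT TKO the values were 531, 455 and 425 CPM before and 417, 344 and 378 CPM after, and in TET TKO 382 and 403 CPM before and 319 and 308 CPM after. The groups did not overlap within any genotype. The log2 change was -0.53 ± 0.08 (SE) in WT (adjusted p = 6.0e-05), -0.31 ± 0.08 in DNMT TKO (adjusted p = 0.0076) and -0.32 ± 0.10 in TET TKO (adjusted p = 0.022). The TET TKO change no longer passed when any 1 of the 4 TET TKO libraries was left out (adjusted p 0.051 to 0.15), nor with scaling to library totals (0.065). The median gene of chromosome 11, which holds Trp53, changed by -0.13 in WT, -0.02 in DNMT TKO and -0.09 in TET TKO.

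Mdm2, the ligase that marks p53 for destruction, behaved differently between genotypes. Its WT libraries overlapped, with 238, 228 and 235 CPM in shEmpty and 253, 233 and 229 CPM in shKAP1, a log2 change of 0.03 ± 0.05 that did not pass (adjusted p = 0.69). In DNMT TKO it had 180.3, 163 and 176 CPM in shEmpty and 295, 311 and 298 CPM in shKAP1. Every knockdown library there lay above every Mdm2 value of WT and TET TKO, and the change was 1.74-fold (log2 0.80 ± 0.05, adjusted p = 3.0e-09). In TET TKO it had 157 and 156 CPM before and 179 and 184 CPM after, a log2 change of 0.22 ± 0.06 (adjusted p = 0.014). Leaving out TET TKO shEmpty replicate 1 or 2 or TET TKO shKAP1 replicate 2 left that change short of the threshold (adjusted p 0.051 to 0.087).

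Ccng1, whose product cyclin G1 acts in the feedback between p53 and Mdm2, rose in every genotype. It went from 458, 421 and 418 CPM to 668, 617 and 619 CPM in WT, 1.47-fold (log2 0.56 ± 0.06, adjusted p = 3.0e-07). In DNMT TKO it went from 552, 483 and 516 CPM to 914, 874 and 843 CPM, 1.70-fold (log2 0.76 ± 0.06, adjusted p = 1.5e-08). In TET TKO it went from 303 and 300.2 CPM to 445 and 459.5 CPM (log2 0.58 ± 0.07, adjusted p = 4.3e-06). Ccng1 also lies on chromosome 11, whose medians were given with Trp53.

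Trp53inp1, which encodes a nuclear protein that aids the action of p53 and takes part in autophagy, fell in WT. Its WT libraries had 562, 528 and 532 CPM in shEmpty and 466, 421 and 427 CPM in shKAP1, and did not overlap (log2 -0.30 ± 0.06, adjusted p = 3.1e-04). In DNMT TKO 473, 499 and 535 CPM stood against 491, 539.6 and 516 CPM, a log2 change of 0.04 ± 0.06 (adjusted p = 0.66). In TET TKO 292 and 288 CPM stood against 269.6 and 294 CPM, a log2 change of -0.04 ± 0.07 (adjusted p = 0.71). In both mutants the libraries of shEmpty and shKAP1 overlapped.

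Cdkn1a, which encodes the inhibitor of cyclin-dependent kinases p21 and is the classical arrest gene of p53, rose modestly in WT and in DNMT TKO. In WT it had 212, 278 and 287 CPM in shEmpty and 344, 352 and 336 CPM in shKAP1, 1.33-fold (log2 0.41 ± 0.10, adjusted p = 0.0035). In DNMT TKO it had 142, 182 and 183 CPM in shEmpty and 235, 240.4 and 257 CPM in shKAP1, 1.44-fold (log2 0.53 ± 0.10, adjusted p = 7.5e-04). In both lines replicate 1 of shEmpty was the lowest library. In TET TKO it had 167 and 171 CPM before and 159 and 153 CPM after. The TET TKO groups did not overlap either, with shKAP1 the lower, but the change of -0.11 ± 0.12 did not pass (adjusted p = 0.55).

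Pmaip1, the gene for NOXA, a BH3-only protein that neutralises the survival protein MCL1, showed the largest response of the members in each genotype. In WT it had 50.5, 65.1 and 63.6 CPM in shEmpty and 138, 182 and 181 CPM in shKAP1, 2.79-fold (log2 1.48 ± 0.18, adjusted p = 1.8e-05). In TET TKO it had 34.3 and 29.4 CPM in shEmpty and 122 and 121 CPM in shKAP1, 3.81-fold (log2 1.93 ± 0.23, adjusted p = 2.7e-05). In DNMT TKO the shEmpty libraries had 1.57, 2.94 and 4.40 CPM, and the lowest count was 31 reads. There the shKAP1 libraries had 81.1, 75.1 and 62.3 CPM, 23.8-fold more (log2 4.57 ± 0.24, adjusted p = 1.6e-08). Knockdown thus brought the DNMT TKO libraries to about the level of WT shEmpty (means of 72.8 ± 9.61 and 59.7 ± 8.03 CPM, SD, n = 3 each). Under the same hairpin they stayed below every library of WT (138 to 182 CPM) and of TET TKO (121 and 122 CPM). Neither comparison was tested.

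The other death genes moved little. Bbc3, the gene for the BH3-only protein PUMA, had 16.2, 17.2 and 19.8 CPM in WT shEmpty and 21.1, 17.8 and 17.2 CPM in WT shKAP1, overlapping groups with a log2 change of 0.07 ± 0.12 (adjusted p = 0.66). In DNMT TKO 15.2, 13.6 and 13.4 CPM rose to 21.6, 16.04 and 17.95 CPM (log2 0.40 ± 0.12, adjusted p = 0.014). That rise did not pass without DNMT TKO shEmpty replicate 2 or 3 or DNMT TKO shKAP1 replicate 1 (adjusted p 0.052 to 0.081). In TET TKO 12.6 and 13.2 CPM stood against 13.01 and 14.7 CPM (log2 0.10 ± 0.15, adjusted p = 0.67). Bax, which encodes a protein that forms pores in the outer membrane of mitochondria, fell in WT from 169, 166 and 170.2 CPM to 135, 141 and 139 CPM (log2 -0.28 ± 0.06, adjusted p = 9.9e-04). The Bax libraries of DNMT TKO overlapped, with 145, 130.1 and 128 CPM against 152, 129.8 and 147 CPM (log2 0.09 ± 0.06, adjusted p = 0.28). In TET TKO Bax had 149 and 138 CPM against 130.5 and 129 CPM (log2 -0.14 ± 0.08, adjusted p = 0.17).

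Sesn2, the gene for sestrin 2, which restrains the growth kinase complex mTORC1 under stress, moved in opposite directions in WT and DNMT TKO. In WT it had 214, 198 and 197 CPM in shEmpty and 162, 147 and 145 CPM in shKAP1 (log2 -0.42 ± 0.06, adjusted p = 1.9e-05). In DNMT TKO it went up from 133, 121 and 117 CPM to 150.2, 151 and 160.1 CPM (log2 0.31 ± 0.06, adjusted p = 6.5e-04). In TET TKO it went down from 169 and 180.3 CPM to 147 and 141 CPM (log2 -0.28 ± 0.08, adjusted p = 0.0089), a change that did not pass without TET TKO shEmpty replicate 2 or TET TKO shKAP1 replicate 2 (adjusted p 0.13 and 0.12). The groups did not overlap within any genotype.

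Zmat3, which encodes a zinc finger protein that binds RNA, rose in both mutants. In DNMT TKO it had 144, 141 and 139 CPM in shEmpty and 192, 188 and 194 CPM in shKAP1 (1.35-fold, log2 0.44 ± 0.05, adjusted p = 1.1e-06). In TET TKO it had 113 and 119 CPM before and 151 and 153 CPM after (1.31-fold, log2 0.39 ± 0.06, adjusted p = 3.9e-05). In WT, 167, 169 and 175 CPM stood against 169.7, 182 and 180.2 CPM, overlapping groups with a log2 change of 0.06 ± 0.05 (adjusted p = 0.34). With scaling to library totals the WT change was 0.13 and passed (adjusted p = 0.027).

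The pluripotency genes summed to 3058 to 3141 CPM after knockdown in WT, 3211 to 3790 in DNMT TKO and 3939 to 4029 in TET TKO, below every shEmpty library. Of these 7 genes, 6 fell in WT, 5 in DNMT TKO and 5 in TET TKO, beside 22.7%, 15.6% and 15.1% of all genes. Endoderm markers summed to 8.05 to 9.70 CPM in shEmpty and 11.5 to 13.5 in shKAP1 of WT, 4.01 to 6.48 and 7.27 to 9.27 in DNMT TKO, and 10.6 to 11.9 and 12.50 to 12.6 in TET TKO. Fibroblast markers went from 5.69 to 8.33 CPM up to 10.9 to 11.6 in DNMT TKO and from 7.44 to 7.47 down to 4.77 to 5.23 in TET TKO, and overlapped in WT. The summed level of 5 trophoblast markers was 74.6 to 83.0 CPM in shEmpty and 53.2 to 67.0 in shKAP1 of WT and 57.1 to 59.0 and 30.5 to 33.3 in TET TKO, and overlapped in DNMT TKO. Single markers, singled out after their values were seen, went both ways. In WT Gata3 passed as higher (log2 1.13), Elf5 as lower on 38 reads in all, and Tfap2c, with the most reads, did not pass (adjusted p = 0.17). These sums are small beside those of the pluripotency genes. Mitochondrial RNAs, a sign of RNA quality, summed to 29920 to 30780 CPM in shEmpty and 31680 to 35780 in shKAP1 of DNMT TKO, which did not overlap and lay above every library of the other genotypes. They overlapped between hairpins in WT (21180 to 25390 and 22260 to 26780 CPM) and in TET TKO (19550 to 21640 and 19090 to 20050 CPM). Of the 8 mitochondrial RNAs, 6 passed as higher in DNMT TKO than in WT without knockdown, beside 20.5% of all genes. On knockdown in DNMT TKO 2 passed as higher, near the share of all genes (19.7%). In a mixed population fewer cells of a type and less RNA per cell cannot be told apart, and the part of these shifts in the changes of the members was not tested.

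The change on knockdown differed between DNMT TKO and WT for most of the members. The difference between the knockdown effects, tested as an interaction term, passed for 6 of 10 members, all with the larger or more positive effect in DNMT TKO, beside 10.6% of all genes in that direction and 7.78% in the other. The 6 were Pmaip1, Mdm2, Sesn2, Zmat3, Bax and Trp53inp1, and Pmaip1 alone was called, beside 7.14% of all genes. Both knockdown effects enter each difference, so it holds nothing beyond the values above except the test. After knockdown Sesn2 averaged 151 CPM in WT and 154 in DNMT TKO, Bax 138 and 143 and Zmat3 177 and 191. Mdm2 averaged 238 and 301, Trp53inp1 438 and 516 and Pmaip1 167 and 72.8. The levels before knockdown thus enter a difference as much as those after it, and the shKAP1 levels were not tested against each other.

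For Pmaip1 the difference was a log2 of 3.09 ± 0.30 (SE, adjusted p = 1.4e-05), and for Mdm2 it was 0.77 ± 0.07 (adjusted p = 1.1e-06). Sesn2 followed at 0.74 ± 0.09 (adjusted p = 1.1e-05), with a fall in WT and a rise in DNMT TKO. Zmat3 differed by 0.38 ± 0.07 (adjusted p = 4.6e-04) and Bax by 0.37 ± 0.09 (adjusted p = 0.0054). Trp53inp1 differed by 0.34 ± 0.08 (adjusted p = 0.0067) and no longer passed without WT shKAP1 replicate 2 or 3 or DNMT TKO shKAP1 replicate 2 (adjusted p 0.051 to 0.057). The other members differed by 0.33 ± 0.17 for Bbc3, 0.22 ± 0.12 for Trp53, 0.21 ± 0.08 for Ccng1 and 0.12 ± 0.14 for Cdkn1a, and did not pass. With the replicate number as a block Ccng1 passed as well (0.21, adjusted p = 0.034). Trim28 itself changed by a log2 of -2.13 ± 0.15 in DNMT TKO and -3.41 ± 0.16 in WT, a smaller fall in DNMT TKO by 1.28 ± 0.21 (adjusted p = 8.0e-04), and the part of this in the differences was not tested.

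In TET TKO the knockdown effect differed from WT for Zmat3 by this test, with a log2 difference of 0.33 ± 0.07 (adjusted p = 0.0068), beside 4.64% of all genes with a larger effect in TET TKO and 5.06% with a smaller one. That difference was under 2-fold and so not called, where 4.21% of all genes were. Cdkn1a had the largest difference in size, -0.52 ± 0.16, and lay at the threshold (adjusted p = 0.052). It passed in 6 of 8 other settings, among them limma-voom (adjusted p = 0.049), the DESeq2 Wald test (0.018) and the fit with the replicate number as a block (log2 -0.53, 0.015), and not with scaling to library totals (0.067) or without the filter on reads (0.095). It also passed without WT shEmpty replicate 1 (adjusted p = 0.046) or 3 (0.03) or DNMT TKO shEmpty replicate 1 (0.013), and not without any other WT or DNMT TKO library. Whether Cdkn1a passed thus depended on the fit. The other 8 members differed by between 0.03 (Bbc3 and Ccng1) and 0.45 ± 0.28 (Pmaip1) and did not pass, with SEs of up to 0.28 that leave room for a difference. The differences for both mutants share the WT libraries.

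**Figure D2:**
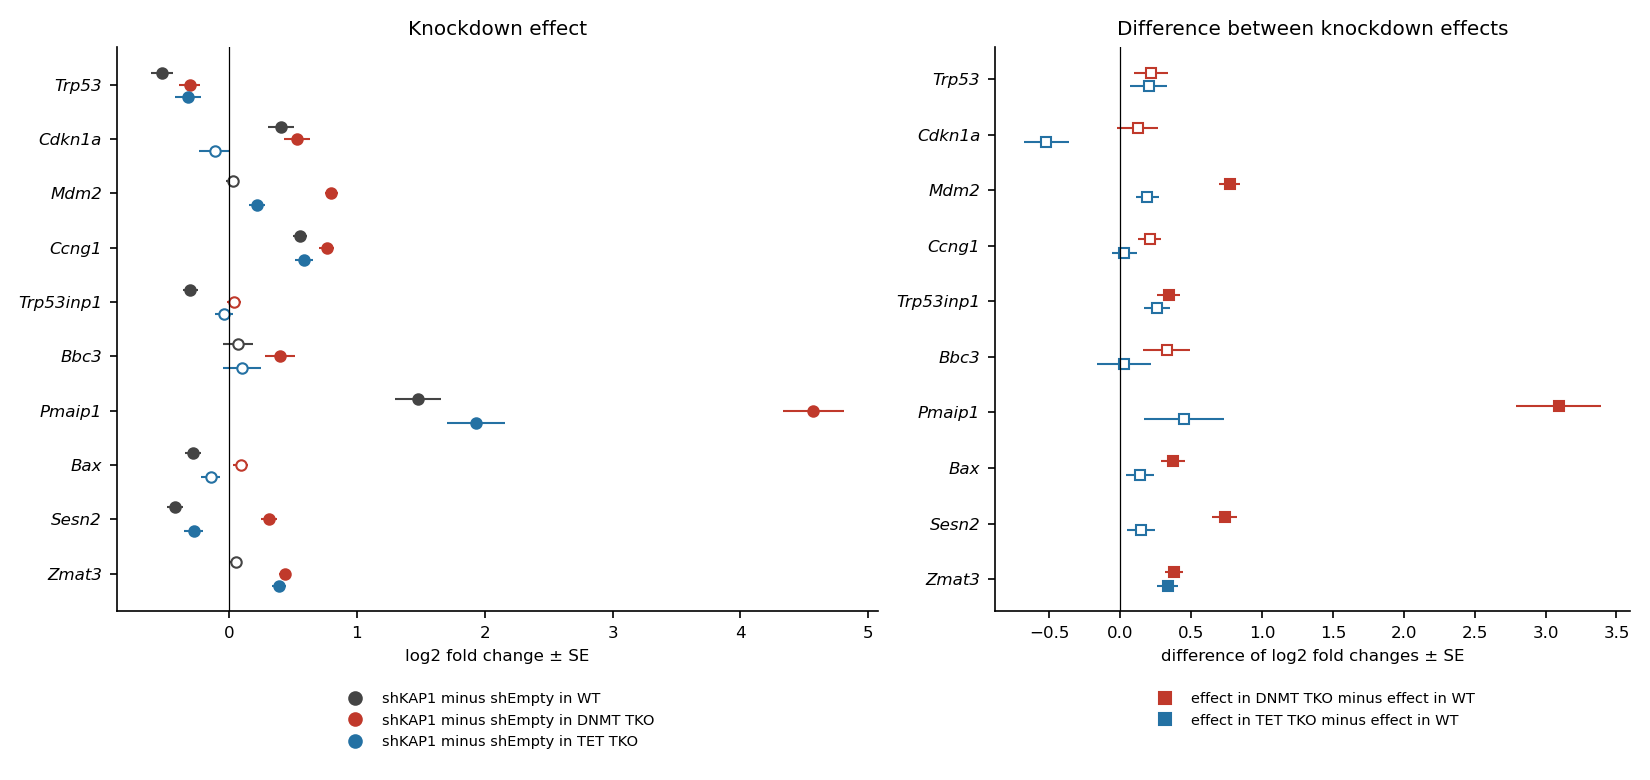
Left, log2 fold change of each member on knockdown in the 3 genotypes with its SE. Right, the difference between the knockdown effect in each mutant and in WT with its SE. Filled symbols passed the test and open ones did not. Pmaip1 in DNMT TKO stands apart at 4.57, and the difference from WT passed for 6 members in DNMT TKO and for Zmat3 in TET TKO.

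Without knockdown most members were lower in the mutants than in WT. In DNMT TKO shEmpty 7 members passed as lower and 2 as higher, beside 23.1% and 20.5% of all genes, and in TET TKO shEmpty 9 passed as lower and 0 as higher, beside 13.1% and 14.1%. Pmaip1 was called in DNMT TKO, beside 16.3% of all genes. The 9 in TET TKO were all under 2-fold, where 10.5% of all genes were called, and 1 member was called there without WT shEmpty replicate 1 or TET TKO shEmpty replicate 1. The median log2 difference of the members was -0.33 in DNMT TKO and -0.54 in TET TKO, where that of all genes was -0.02 and 0.00. Both comparisons share the WT shEmpty libraries, and they share the shEmpty libraries with the knockdown comparisons, so a low shEmpty value enters both a negative difference here and a larger rise there. Libraries of mutant and WT shEmpty did not overlap for 9 members in DNMT TKO and 9 in TET TKO, beside 50.8% and 53.1% of all genes.

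In DNMT TKO the largest difference was that of Pmaip1, whose log2 of -4.29 ± 0.24 (adjusted p = 1.3e-08) corresponds to the 1.57 to 4.40 CPM against 50.5 to 65.1 CPM in WT. The median gene of chromosome 18, which holds it, differed by -0.02. Sesn2 was lower by -0.71 ± 0.06 (adjusted p = 4.1e-08), Cdkn1a by -0.62 ± 0.10 (adjusted p = 1.3e-04) and Mdm2 by -0.43 ± 0.05 (adjusted p = 2.3e-06). Smaller differences were found for Bbc3 at -0.34 ± 0.12 (adjusted p = 0.028), Bax at -0.33 ± 0.06 (adjusted p = 2.8e-04) and Zmat3 at -0.27 ± 0.05 (adjusted p = 1.2e-04). That of Bbc3 did not pass without WT shEmpty replicate 3 or DNMT TKO shEmpty replicate 2 or 3 (adjusted p 0.086 to 0.14). Trp53inp1 differed by -0.11 ± 0.06 and did not pass (adjusted p = 0.15).

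Trp53 and Ccng1 were the 2 members higher in DNMT TKO, by 0.28 ± 0.08 (adjusted p = 0.011) and 0.26 ± 0.06 (adjusted p = 0.0011). Both lie on chromosome 11, where the median of 1720 tested genes was 0.29 in this comparison. Neither gene thus stood above the middle of its chromosome, and the part of the chromosome in their difference was not tested. In TET TKO the median of chromosome 11 was -0.01, with Trp53 at 0.02 ± 0.09 (adjusted p = 0.90) and Ccng1 at -0.52 ± 0.06 (adjusted p = 7.6e-06).

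In TET TKO the differences were more even. Pmaip1 was lower by -0.91 ± 0.21 (adjusted p = 0.0055) and Trp53inp1 by -0.90 ± 0.07 (adjusted p = 1.5e-08), with 292 and 288 CPM against 528 to 562 in WT. Cdkn1a at -0.62 ± 0.11 (adjusted p = 7.5e-04), Mdm2 at -0.58 ± 0.06 (adjusted p = 7.8e-07) and Zmat3 at -0.55 ± 0.05 (adjusted p = 3.2e-07) came next. Bbc3 at -0.46 ± 0.13 (adjusted p = 0.016), Bax at -0.23 ± 0.07 (adjusted p = 0.017) and Sesn2 at -0.22 ± 0.07 (adjusted p = 0.025) were nearer the threshold. Without TET TKO shEmpty replicate 2, Pmaip1 (adjusted p = 0.065), Bax (0.16) and Bbc3 (0.058) no longer passed. Bbc3 was also lost without WT shEmpty replicate 3 (0.074) or TET TKO shEmpty replicate 1 (0.12), and Sesn2 without WT shEmpty replicate 1 (0.079) or TET TKO shEmpty replicate 1 (0.22).

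**Figure D3:**
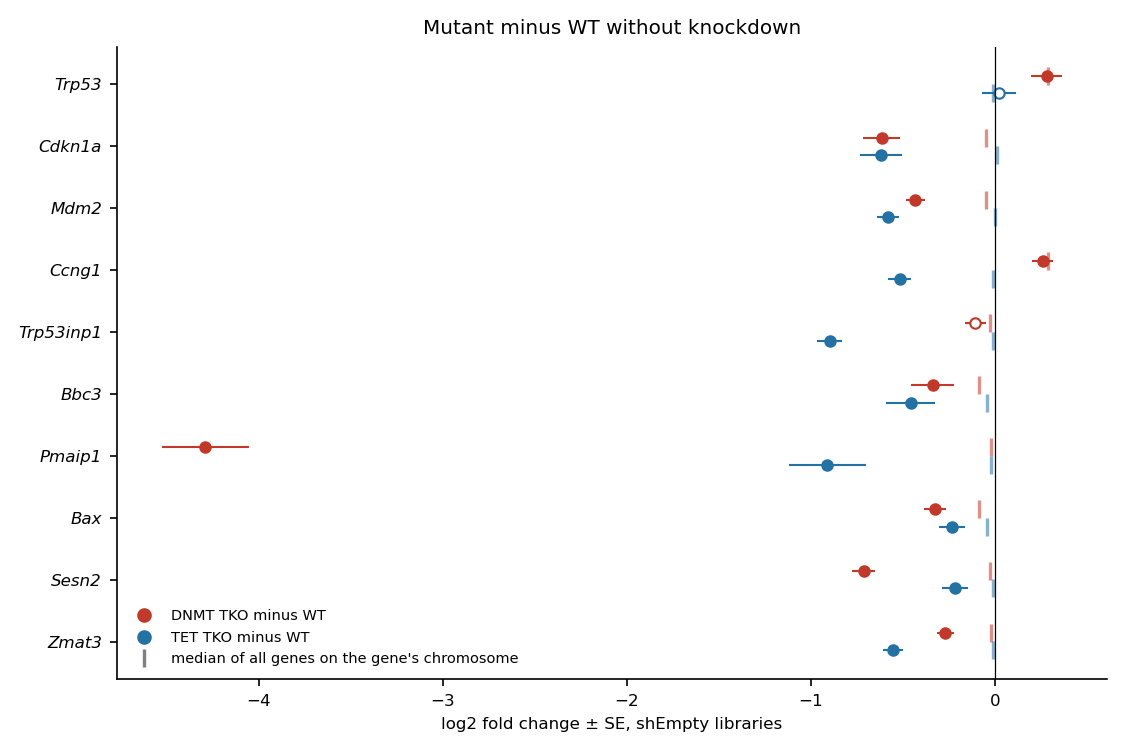
Log2 difference of each member between mutant and WT shEmpty libraries with its SE. Filled points passed the test, and vertical ticks are the median of all tested genes on the chromosome of the member. Trp53 and Ccng1 in DNMT TKO sit at the tick of chromosome 11, and Pmaip1 lies at -4.29.

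A wider list held 39 other targets of p53 in 4 groups, also chosen with earlier results of these data known. On knockdown 13 of 39 rose and 6 fell in WT, 25 rose and 2 fell in DNMT TKO, and 13 rose and 5 fell in TET TKO. Of all genes 23.0% rose and 22.7% fell in WT, 19.7% and 15.6% in DNMT TKO and 15.3% and 15.1% in TET TKO, the shares against which the lists below can also be read. The median log2 changes were 0.04, 0.53 and 0.14. Of the 39, 7 were called in WT, 9 in DNMT TKO and 3 in TET TKO, beside 17.4%, 12.5% and 12.5% of all genes, so the count in WT was near the background. The difference between knockdown effects in DNMT TKO and WT passed for 17 with the more positive effect in DNMT TKO and for 2 with the less positive one, beside 10.6% and 7.78% of all genes. For TET TKO it passed for 4 and 5, beside 4.64% and 5.06%. In that comparison 2 were called, beside 4.21% of all genes, 1 without replicate 1 of WT shEmpty, WT shKAP1, TET TKO shEmpty or TET TKO shKAP1, and 0 without replicate 2 of TET TKO shEmpty or TET TKO shKAP1. Without knockdown 21 of 39 were lower and 4 higher in DNMT TKO, beside 23.1% and 20.5% of all genes, and 17 lower and 4 higher in TET TKO, beside 13.1% and 14.1%. Of the 39, 2 were called in TET TKO, beside 10.5% of all genes, and 7 in DNMT TKO, beside 16.3%. The TET TKO count was 4 without WT shEmpty replicate 1, 5 without TET TKO shEmpty replicate 1 and 1 without WT shEmpty replicate 3 or TET TKO shEmpty replicate 2.

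A list of 10 was named arrest targets, a label that need not describe each of its genes. Of these, 4 rose and 1 fell in WT, 7 rose and 0 fell in DNMT TKO and 3 rose and 0 fell in TET TKO. The medians were 0.06, 0.77 and 0.17. Single genes of these lists were named for a large change in WT, so their differences from WT are given as descriptions with no test. The antiproliferative gene Btg2 rose by a log2 of 1.07 ± 0.07 in WT, 1.72 ± 0.08 in DNMT TKO and 0.70 ± 0.09 in TET TKO. In shEmpty it had 80.1 to 82.55 CPM in WT, 41.1 to 47.4 in DNMT TKO and 48.3 and 52.1 in TET TKO. In shKAP1 the values were 162 to 175, 130 to 162 and 79.9 and 82.7 CPM. Ddit4l, an inhibitor of mTOR signalling, rose by 1.29 ± 0.12, 2.22 ± 0.13 and 2.30 ± 0.16. In shEmpty it had 15.85 to 22.7 CPM in WT, 8.18 to 11.7 in DNMT TKO and 8.95 and 8.37 in TET TKO. In shKAP1 the values were 44.5 to 48.6, 41.7 to 45.2 and 41.4 and 44.3 CPM. For Btg2 and Ddit4l both mutants thus began below every WT library. After knockdown no mutant library exceeded the highest of WT. Plk2, Ptp4a3 and Rprm, singled out after their values were seen, were called in DNMT TKO and not in WT. Their log2 changes were 1.11 ± 0.09, 1.01 ± 0.15 and 1.91 ± 0.34 in DNMT TKO and 0.72 ± 0.09, 0.14 ± 0.15 and -0.56 ± 0.32 in WT. Among 12 death targets 5 rose and 2 fell in WT, 8 rose and 1 fell in DNMT TKO and 6 rose and 2 fell in TET TKO. Casp8, an initiator caspase, rose from 2.56 to 4.74 CPM up to 42.0 to 54.9 CPM in WT and from 1.73 and 2.19 to 30.9 and 32.8 CPM in TET TKO. In DNMT TKO its shEmpty libraries already held 5.03 to 12.6 CPM and its shKAP1 libraries 35.2 to 44.4, a log2 change of 1.92 ± 0.26 beside 3.67 ± 0.29 in WT. Perp, a membrane protein of desmosomes that takes part in apoptosis, fell by 1.12 ± 0.13 on the log2 scale in WT and by 1.13 ± 0.17 in TET TKO and rose by 0.53 ± 0.13 in DNMT TKO.

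Among 10 metabolic targets 2 rose and 2 fell in WT, 7 rose and 1 fell in DNMT TKO and 3 rose and 2 fell in TET TKO. Ddit4, which restrains mTORC1, rose by 1.39 ± 0.21 in WT and 1.86 ± 0.22 in DNMT TKO, and stood at -0.04 ± 0.26 in TET TKO. In shEmpty it had 42.0 to 80.8 CPM in WT, 19.55 to 31.35 in DNMT TKO and 74.3 and 72.1 in TET TKO. In shKAP1 the values were 167 to 172, 83.9 to 112 and 73.1 and 69.2 CPM. The glutaminase gene Gls2 fell by 1.58 ± 0.11 on the log2 scale in WT, 0.58 ± 0.11 in DNMT TKO and 0.99 ± 0.13 in TET TKO. Of 7 repair targets 2 rose and 1 fell in WT, 3 rose and 0 fell in DNMT TKO and 1 rose and 1 fell in TET TKO, with every change that passed under 2-fold.

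Genes that regulate p53 changed in both directions. Of 16, 2 rose and 6 fell in WT, 2 rose and 5 fell in DNMT TKO and 1 rose and 4 fell in TET TKO, with every change that passed under 2-fold. Mdm4, the partner of Mdm2 that masks p53, was singled out after its values were seen and fell in each genotype, by a log2 of 0.45, 0.93 and 0.58. Of 9 relatives of p53 and of the members, 3 rose in WT, 3 in DNMT TKO and 1 in TET TKO, and 2 fell in DNMT TKO. Sesn3, the paralog of Sesn2, rose by 1.22 ± 0.11 in WT, 0.79 ± 0.10 in DNMT TKO and 0.58 ± 0.13 in TET TKO. Cdkn1c, a relative of Cdkn1a, passed in WT at 1.39 ± 0.46 with 1 library far above the others. It had 2.39, 1.39 and 1.56 CPM in shEmpty and 8.70, 2.38 and 2.67 CPM in shKAP1, which overlapped. Without WT shKAP1 replicate 1 the change was 0.56 (adjusted p = 0.19), and it did not pass without WT shEmpty replicate 2 or 3 either (0.086 and 0.074). Of 9 genes of the BCL2 family 5 rose and 1 fell in WT, 3 rose and 1 fell in DNMT TKO and 0 rose and 1 fell in TET TKO.

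Of 15 genes of the mitotic cell cycle, which p53 signalling is known to lower, 12 fell and 1 rose in WT, 7 fell and 1 rose in DNMT TKO and 5 fell and 0 rose in TET TKO, beside 22.7%, 15.6% and 15.1% of all genes that fell. The medians were -0.32, -0.13 and -0.06 on the log2 scale, and every change that passed was under 2-fold. The difference between knockdown effects was positive and passed for 4 of these genes in DNMT TKO and for 5 in TET TKO, beside 10.6% and 4.64% of all genes.

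**Figure D4:**
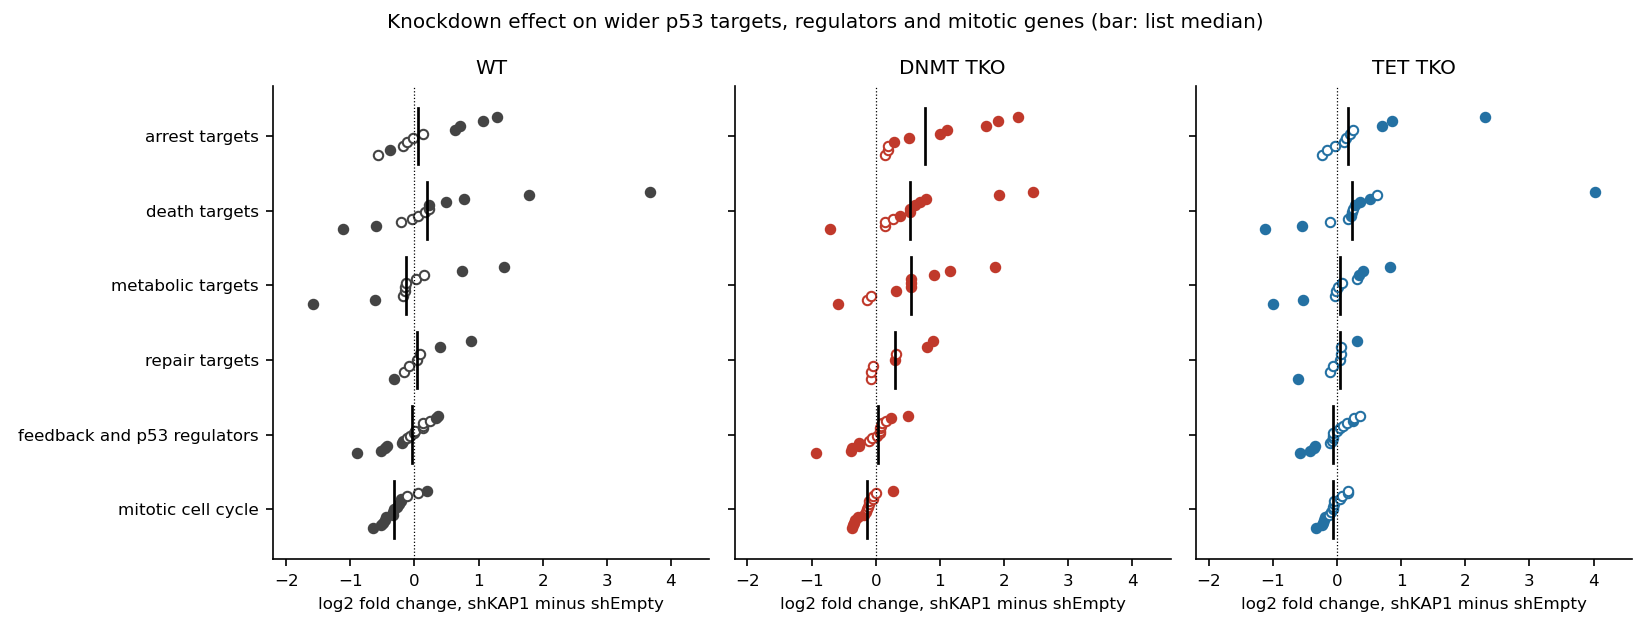
Log2 fold change on knockdown for every tested gene of 4 lists of p53 targets, of p53 regulators and of mitotic genes, by genotype. Filled points passed the test, and bars are list medians, which for arrest targets were 0.06 in WT, 0.77 in DNMT TKO and 0.17 in TET TKO.

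The starts of the members carried an active mark. In WT cells peaks of H3K4me3, the mark of active promoters, lay within 1 kb of the start in both replicates at 10 of 10 members, beside 69.3% of tested genes. H3K27me3, the mark of Polycomb repression, lay there at 0 of 10, beside 16.1%. The scores that the MACS peak caller gave to these H3K4me3 peaks lay between 2274 and 3100 at the other 9 members and were lowest at Pmaip1, at 1027 and 1496 in the 2 replicates.

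A deposited KAP1 or H3K9me3 region lay within 5 kb of 3 of 10 members, beside 23.5% of tested genes. KAP1 regions lay at Pmaip1, Cdkn1a and Trp53inp1. An H3K9me3 region deposited as KAP1-independent lay just downstream of Trp53inp1 at chr4:11102401-11112199, and the 4 KAP1 regions near that gene lay inside it. The name is that of the deposited set, and the paper reports that H3K9me3 was almost wholly lost from enriched regions on Kap1 knockdown. At Pmaip1 the region at chr18:66618068-66618660 covered the gene start. A KAP1 region lay within 1 kb of the start at 1 of 10 members and 4.40% of tested genes, a feature singled out after the values were seen. The 5hmC libraries held 2 reads there in shEmpty and 2 in shKAP1 (exact Poisson 95% interval 0.242 to 7.23 each) and the inputs 11 and 15, in 1 library per condition. At the end of Cdkn1a the KAP1 region at chr17:29237241-29237808 held 24 reads of 5hmC in shEmpty (15.4 to 35.7) and 64 in shKAP1 (49.3 to 81.7), beside 16 and 18 input reads. The 5hmC libraries held 7822735 and 8814209 reads over all region sets, and the intervals cover counting error only, so this difference compares 2 libraries. It was singled out after the values were seen. Differences of this kind were common over all regions, but less so over H3K4me3 regions. Summed over all region sets, the shKAP1 library held 1.13 times the 5hmC reads of the shEmpty library. Some sets overlap and they include regions that gained 5hmC, so this is not a ratio of library sizes. With intervals scaled by this ratio, 3 of 46 regions within 20 kb of a member were higher in shKAP1 with no overlap and 1 was lower, beside 17.2% and 1.32% of 88952 regions of all sets. On reads as counted these were 5 and 0, beside 23.2% and 0.632%. Of KAP1 regions 1 of 7 near members was higher after scaling, beside 26.5% of all 26553. Most of the 46 were H3K4me3 regions (36), of which 2 were higher after scaling, beside 4.61% of all 28066. The regions near members are thus a different mix of sets than all regions, and the share over all sets is not like for like. The scaling was chosen after the values were seen. The H3K4me3 region at the end of Bbc3, at chr7:16902365-16903366, went from 38 reads (26.9 to 52.2) to 88 (70.6 to 108), beside 20 and 18 input reads and with no KAP1 region within 20 kb of that gene. It too was singled out after the values were seen, from the H3K4me3 regions counted above. The other KAP1 region in Cdkn1a, at chr17:29234338-29234923, held 9 reads in shEmpty (4.12 to 17.1) and 7 in shKAP1 (2.81 to 14.4). The 4 KAP1 regions downstream of Trp53inp1 had 5hmC counts of 58, 57, 40 and 86 without knockdown and of 54, 48, 45 and 83 with it, with overlapping intervals in each.

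Likeness over the 16 libraries was taken as Pearson's r of log2 CPM against 13504 genes with at least 500 reads, as a description. Cdkn1a was most like Cdsn (0.97), Plek2 (0.96) and Fam69a (0.95). Mdm2 was most like Lif (0.96), Col6a5 (0.95) and Ptk2b (0.94), and Trp53 was most like Ttc27 (0.98), Snrnp200 (0.97) and Nsun2 (0.97). Among the members the highest r was 0.92, between Mdm2 and Zmat3, and the lowest was -0.84, between Trp53 and Pmaip1. The 16 points share 6 groups and their scaling, so genotype and hairpin enter every such value.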

How the data were processed

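RNA-seq of 16 libraries, ChIP-seq of H3K4me3 and H3K27me3 (2 replicates each, WT) and hMeDIP-seq of WT cells were used, all on mm9. Per the paper's methods the authors aligned stranded RNA reads with HISAT2, kept unique reads and deposited counts per gene made with featureCounts (1.5.0-p1 in the file headers, 1.5.1 in the submitters' processing notes). Reads that map to several places were thus lost. The headers name an alignment as TopHat would. The authors deposited a score for each ChIP peak, called per replicate against its input, and counts of hMeDIP reads over region sets.

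Genes with at least 16 reads were fitted in edgeR 4.0.16 (R 4.3.3) with TMM scaling and robust quasi-likelihood over 6 groups, with Benjamini-Hochberg adjustment over 20321 genes per comparison. The 7 comparisons were the knockdown in each genotype, 2 interactions and 2 differences without knockdown. On simulated data for the WT knockdown, run on 20128 genes, 97.5% of 200 genes changed by a log2 of 1.5 were recovered, with 3 false calls. The changed genes were drawn from those with more reads, and equal numbers were raised and lowered. In the WT knockdown itself 3529 genes were called, 62.3% of them higher. Scaling and false calls with so many changed genes were not simulated. Smaller changes, such as those of most members, were not simulated. Alternatives used limma 3.58.1 (limma-voom, the tool of the study), DESeq2 1.42.0, other scalings, filters and subsets, and each library left out.

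Libraries with the same replicate number deviated together (correlation 0.296 to 0.474 between shEmpty and shKAP1 of WT, 0.203 to 0.574 of DNMT TKO, 0.317 to 0.511 between shEmpty of both) but not in TET TKO (-0.03). The pairing comes from the values.

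The members and gene lists were chosen with earlier results of these data known. Members were named throughout, and from each other list up to 3 genes per direction called in the WT knockdown with at least 500 reads. Gata3, Elf5 and Tfap2c fell outside this rule, like the other genes marked as singled out after their values were seen. Sox17, Thy1 and Col1a1 met it and enter only the marker sums. Sox2 and Klf4 met it too, with log2 changes of -1.34 and -1.32 in the WT knockdown, and otherwise enter only the sums and counts of the pluripotency genes. Counts over transposable elements and imprinting control regions were not used here. The second hMeDIP replicate was left out because titles and file names disagree on which library is which. Sesn2 overlaps Gm12981 on its strand (136 reads).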

Additional observations from a re-analysis of the deposited data

Results flagged for a closer look

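The knockdown effect differed between DNMT TKO and WT by the interaction test for Pmaip1 (log2 difference 3.09, DNMT TKO minus WT), Mdm2 (0.77), Sesn2 (0.74), Zmat3 (0.38), Bax (0.37) and Trp53inp1 (0.34). It differed between TET TKO and WT for Zmat3 (0.33, TET TKO minus WT). For Sesn2 every shKAP1 library lay below every shEmpty library in WT and above every one in DNMT TKO. For Pmaip1 the 3 DNMT TKO shEmpty libraries held 1.57, 2.94 and 4.40 CPM, and leaving out any 1 of the 16 libraries kept the difference between 2.79 and 3.47.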

How the results depend on the processing

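Without a fold threshold 7, 8 and 6 members passed in the knockdowns of WT, DNMT TKO and TET TKO, 6 and 1 in the interactions of DNMT TKO and TET TKO, and 9 and 9 in the differences without knockdown. For the 39 wider targets these counts were 19, 27, 18, 19, 9, 25 and 21. In the TET TKO interaction limma-voom called 1 wider target, and in TET TKO without knockdown scaling to library totals called 4. With 1 library left out, wider targets called numbered 0 to 2 in the TET TKO interaction and 1 to 5 in TET TKO without knockdown, where called members numbered 0 to 1.

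Over 8 other settings of the fit, 548 changes of members kept their direction and side of the threshold, 8 passed there and not in the reported fit, 1 was lost (Trp53 in the TET TKO knockdown) and 3 turned. With 1 library left out these numbers were 1078, 3, 25 and 14. No change that turned passed the test. Scaling to library totals gave Trp53inp1 0.0326 in the TET TKO knockdown and Trp53 -0.00875 in TET TKO without knockdown, and the replicate block gave the latter -0.00463. With 1 library left out Bbc3 ran from -0.00183 to 0.161 in the WT knockdown, and Trp53inp1 from -0.0379 to 0.0869 in that of DNMT TKO and from -0.0935 to 0.0291 in that of TET TKO. In the interactions Cdkn1a ran from -0.0329 to 0.245 in DNMT TKO, and in TET TKO Ccng1 ran from -0.0146 to 0.0592 and Bbc3 from -0.0687 to 0.112. Trp53 in TET TKO without knockdown ran from -0.0237 to 0.0655. The causes were not tested. With the replicate block Ccng1 passed in the DNMT TKO interaction (0.21) and Cdkn1a in that of TET TKO (-0.53, adjusted p = 0.015 in edgeR). It changed whether a member passed in no other comparison. TET TKO libraries share only numbers. Leaving out 1 of 2 TET TKO libraries assumes that the other varies like the rest.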
